A study of Mus musculus with 14 samples.

Results

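The response of wild-type (WT) mouse carotid artery to rosiglitazone was described from 6 of the 14 RNA sequencing libraries of the series, 3 treated with the drug and 3 with its solvent DMSO. The WT libraries were chosen by the genotype and treatment in their titles, and no measured value entered that choice. All came from male C57BL/6J mice, labelled wild-type for Rbp7, which is knocked out (KO) in the other 8 libraries, and the drug was given at 10 µM for 24 h. The design text speaks of treating removed arteries and the treatment protocol of treating mice, so the labels leave the kind of exposure unsettled. The 8 KO libraries, 4 with each treatment at the same dose and time, are used below for their own response and for the test of the difference between the genotypes' responses. The sources used here give no age, do not say whether animals were pooled and do not tie a replicate to an animal. The p-values thus reflect how far these libraries differ from one another, which may include technical variation.

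Rosiglitazone is a thiazolidinedione, a synthetic ligand of the nuclear receptor PPARγ. PPARγ binds DNA together with the retinoid X receptor, and when a ligand is bound it recruits coactivators and raises transcription of genes for the uptake, transport and storage of fatty acids. In the vessel wall the receptor is present in endothelium and smooth muscle and is known for its part in vascular tone. Rbp7, a cytosolic retinol-binding protein, has itself been described as a PPARγ target in endothelium.

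The table gives each of 63244 transcripts in TPM, a share of the library's transcripts that is corrected for transcript length. Read numbers cannot be had from this unit, and the depth of every library is unknown. Its identifiers are of the UCSC kind, and 0 of them matched the gene tables at hand, so the files do not pair them with genes. Known PPARγ targets and the markers of smooth muscle, endothelium, fat or other cells could therefore not be looked up, and the tissue label was not checked against markers. Rows with at least 1 TPM in at least 3 of the 6 libraries were kept, 26037 in all (41.2%). At the edge of this filter, the third-highest value was 1.00 TPM both in the lowest row kept and in the highest row left out. Differences were taken on the scale log2(TPM + 1), rosiglitazone minus DMSO, over all libraries and between the libraries of each replicate number.

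On the measures of composition read here, the ranges of the DMSO and rosiglitazone libraries overlapped. With 3 libraries against 3, the exact permutation tests below have too few arrangements to decide whether the groups were alike. Single libraries did differ. A transcript among the 5 most abundant had 14191, 12814 and 17151 TPM in DMSO and 16721, 5884 and 24696 TPM with the drug. Between 24789 and 26179 transcripts reached 1 TPM in the DMSO libraries and between 24480 and 25194 in the rosiglitazone libraries, ranges that overlap (two-sided exact permutation test, p = 0.3, where 0.1 is the smallest p that 3 against 3 allows). The 10 most abundant transcripts held between 50.6% and 53.8% of the TPM in DMSO and between 52.4% and 55.6% with the drug (p = 0.6, same exact test). The same 2 transcripts led every WT library. The most abundant had 246496, 252653 and 219395 TPM in DMSO and 244478, 276871 and 235746 TPM with the drug, and the next had 213453, 198451 and 206600 TPM against 197707, 211040 and 203485 TPM. Neither changed beyond the spread between libraries (differences of 0.07, SE 0.17, and -0.01, SE 0.15; limma adjusted p = 0.998 and 1).

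The response was small for most transcripts. In bulk RNA, fewer cells of a type and less RNA per cell cannot be told apart. The median size of the mean difference was 0.147 on the log2 scale, below the median standard deviation between libraries of a group, 0.239. A mean difference of 1 or more on the log2(TPM + 1) scale was seen in 574 transcripts, 2.2% of those tested. Such a difference is called 2-fold here and below. It is 2-fold in TPM + 1, and at low TPM it takes a larger fold in TPM itself. Differences and spreads of low transcripts are thus smaller on this scale than on a log2 scale of TPM alone. The 574 were mostly at low abundance. Transcripts were divided by their mean TPM over the 6 libraries into 6 classes. Mean differences of 2-fold or more made up 2.68% of the 9529 transcripts under 3 TPM and 2.87% of the 8734 at 3 to 10 TPM. They made up 1.06% of the 5010 at 10 to 30 TPM, 0.609% of the 2135 at 30 to 100 TPM and 0.341% of the 587 at 100 to 1000 TPM, and there was none among the 42 at 1000 TPM or more. The spread between libraries shrank in the same order at first, with a median standard deviation of 0.295 under 3 TPM, 0.248 at 3 to 10 TPM and 0.189 at 10 to 30 TPM, and then of 0.157, 0.164 and 0.138 in the 3 higher classes. The plot of size against abundance shows this funnel.

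**Figure D1:**
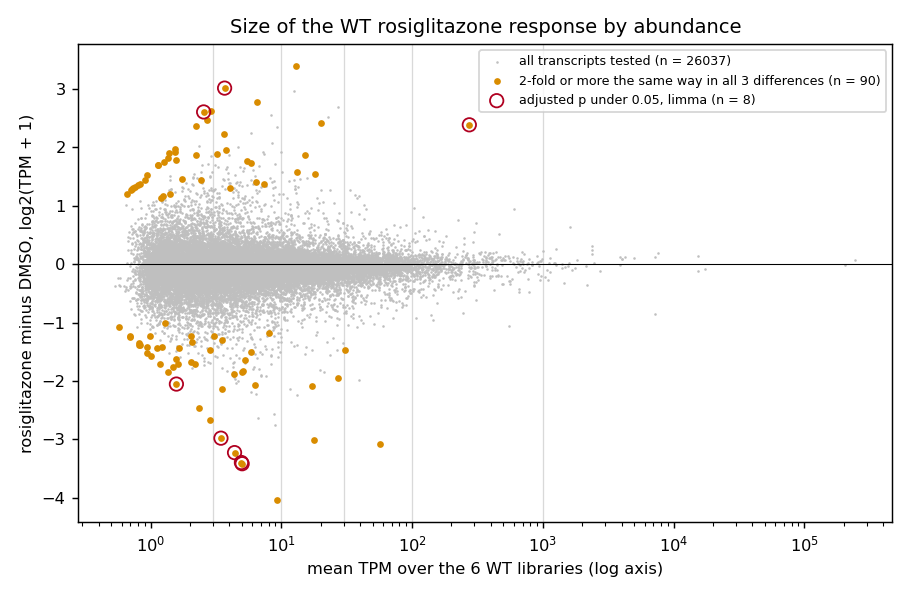
Mean difference between rosiglitazone and DMSO on the log2(TPM + 1) scale (vertical axis) against mean TPM over the 6 WT libraries (horizontal log axis) for 26037 transcripts, with the borders of the 6 abundance classes as vertical lines. Filled points mark the 90 transcripts that differed by 2-fold or more on this scale, the same way in all 3 replicate differences. Open circles mark the 8 past the threshold, of which 7 lie under 10 TPM.

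In the test of the drug against DMSO, 8 transcripts passed an adjusted p of 0.05 (limma, 3 higher and 5 lower), 0.0307% of those tested, and 1402 had an unadjusted p under 0.05 (5.38%). Of the 8, 7 lay under 10 TPM, and 6 were listed at 0 in all 3 libraries of one group and above 0 in all 3 of the other. The replicate numbers paired the WT libraries by the criterion used, and the fit that gave the 8 calls leaves this pairing out. With the number as a fixed block, 0 transcripts passed, the smallest adjusted p was 0.298 and 1849 had an unadjusted p under 0.05 (limma). This block left 2 degrees of freedom per transcript to estimate the spread, in place of 4. The loss of the calls therefore does not settle whether they hold. With the number as a random effect 10 passed, these 8 included. Leaving out 1 library at a time also ended the whole list for DMSO replicates 2 and 3 and rosiglitazone replicates 2 and 3 (0 calls each, with 1177, 1038, 1204 and 2248 transcripts at an unadjusted p under 0.05). Without rosiglitazone replicate 1 there were 4 calls, of which 1 was among the 8, and without DMSO replicate 1 there were 8, of which 5 were.

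The transcript uc008opl.2 was the only one of the 8 above 10 TPM. It had 71.6, 82.5 and 109 TPM in the DMSO libraries and 557, 427 and 397 TPM with rosiglitazone. The groups were far apart, with the lowest treated library well above the highest control. It rose by 2.39 on the log2 scale (SE 0.19, limma adjusted p = 0.0359; 0.373 with the replicate block), and the replicate differences were 2.94, 2.36 and 1.86. Its size hardly depended on the settings, between 2.24 and 2.55, while its adjusted p did. The call ended when any of the 6 libraries was left out (adjusted p from 0.0778 to 0.215). In KO arteries the same transcript had 116, 121, 67.9 and 53.1 TPM in DMSO and 218, 277, 135 and 118 TPM with the drug. These groups overlapped (121 against 118 TPM), while under each replicate number the treated KO library had the higher value. The KO libraries with sample numbers 18 to 21 had the lower values in both treatments. The mean KO difference was 1.05. The difference between the KO and WT responses, -1.33 (SE 0.46), did not pass (limma adjusted p = 1 over all transcripts, with an unadjusted p of 0.0121).

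The other 7 calls were of low transcripts. With the drug uc033jnf.1 measured 5.60, 10.6 and 5.88 TPM, and its 3 controls were listed at 0 (limma adjusted p = 0.036; 0.345 with the block). Another that rose measured 5.08, 4.89 and 5.29 TPM with the drug, again with every control listed at 0 (adjusted p = 0.017; 0.298 with the block). In the opposite direction, uc033hqw.1 had 6.52, 6.48 and 7.71 TPM in DMSO and was listed at 0 in all 3 treated libraries (adjusted p = 0.0149; 0.298 with the block). The transcript uc033hga.1 had 6.33, 13.1 and 10.3 TPM in DMSO and was also listed at 0 in all treated libraries (adjusted p = 0.0319; 0.298 with the block). Of the other 3 that fell, 2 were listed at 0 with the drug and had between 3.01 and 11.2 TPM in DMSO. The remaining one had 6.73, 10.8 and 12.6 TPM in DMSO and at most 0.0113 TPM with the drug. In every one of these 7 the groups were separated completely, and the list is made up of transcripts that are present in one group and all but missing from the other. A listing at 0 can be a failed estimate where similar transcripts share reads, so no fold is given for them. All 7 of these calls, including the one not listed at 0, passed the filter on low values only through the group in which they were high. The filter thus favours this pattern. With no filter 0 transcripts passed (limma, 2261 at an unadjusted p under 0.05). The number tested then rose to 45843, and the differences of the 8 stayed the same, with adjusted p from 0.0516 to 0.103 (limma). The call of uc008opl.2, which is not of this pattern, was lost as well (limma adjusted p = 0.0895). The count of 0 therefore does not separate the filter's part from the larger number of tests. Among the 8 calls, 5 had the same sign of difference in the KO libraries, beside 62.7% of all 26037 transcripts tested.

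**Figure D2:**
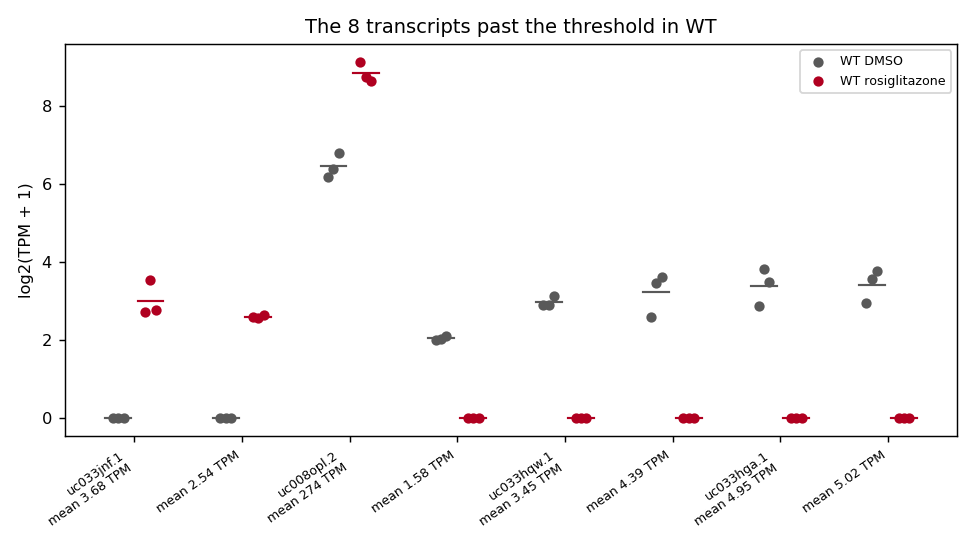
Level on the log2(TPM + 1) scale (vertical axis) in each of the 3 WT DMSO (grey) and 3 WT rosiglitazone (red) libraries for the 8 transcripts past the threshold, ordered by their mean difference, with group means as lines. Apart from uc008opl.2, each is at or near 0 in every library of one group.

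Large differences that all 3 replicates shared also lay mostly at low abundance, as most tested transcripts did. In 90 transcripts (0.346%) all 3 replicate differences were 2-fold or more in the same direction, in 43 of them upward and in 47 downward. Of these, 79 (87.8%) lay under 10 TPM, beside 70.1% of all transcripts tested, and 3 at 30 TPM or more. They made up 0.567% of the transcripts under 3 TPM, 0.286% at 3 to 10, 0.16% at 10 to 30, 0.0937% at 30 to 100, 0.17% at 100 to 1000 (1 transcript) and none at 1000 TPM or more. In the set of 90, 21 were listed at 0 throughout one group and above 0 throughout the other (11 present only with the drug and 10 only in DMSO). This count depended on the added constant. It was 83 up and 109 down with 0.1 in place of 1, and 5 up and 6 down with 5.

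The KO libraries, which had no part in choosing these transcripts and share no library with the WT comparison, gave a second reading of their direction. Their composition varied more widely than that of the WT libraries. The 10 transcripts most abundant in WT held 43.9% to 55.9% of the TPM in KO and 50.6% to 55.6% in WT. Transcripts under 10 TPM held 6.56% to 10.4% in KO and 6.67% to 7.98% in WT. The mean KO difference had the same sign for 53 of the 90 (58.9%), beside 62.7% over all 26037 transcripts, and it was 2-fold or more in that direction for 8. For the 43 that were higher in WT the count was 22, and for the 47 that were lower it was 31. Among the 21 all-or-none transcripts it was 10. The share for the 90 was thus no higher than that for transcripts at large, and it was 52.2% without the 4 KO libraries with sample numbers 18 to 21 and 54.4% without both KO libraries of replicate 4.

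Direction was then read without regard to size. All 3 differences had the same sign in 7250 transcripts (27.8%), 2190 of them higher (8.41%) and 5060 lower (19.4%) with the drug. The 3 treated values lay entirely above or below the 3 control values in 2512 (9.65%), higher in 726 (2.79%) and lower in 1786 (6.86%). With 3 libraries against 3, interchangeable labels would give full separation at a rate of 0.1, so 9.65% does not by itself show a response. The split between higher and lower depended on how the libraries were centred. The median difference over all transcripts was 0.0506 in replicate 1, -0.108 in replicate 2 and -0.112 in replicate 3, and scaling by the median of ratios, which by its construction sets these medians near 0, brought them to between 0 and 0.00502. After that scaling 3692 transcripts were higher and 3562 lower in all 3 differences, which moved the share of higher ones from 30.2% to 50.9%, and for groups that do not overlap from 28.9% to 48.2%. The totals hardly moved (7254 and 2541). TPM gives shares of a fixed total, so it holds no measure of whether transcripts as a whole went down.

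The share of transcripts with 3 differences of the same sign was higher in each higher class. It was 26.2% under 3 TPM, 27.3% at 3 to 10, 29.0% at 10 to 30, 32.5% at 30 to 100, 35.3% at 100 to 1000 and 40.5% at 1000 TPM or more. The share with groups that do not overlap did not follow abundance and stayed between 8.24% and 11.9% in the 6 classes. The count of such transcripts with the same sign in KO was then taken in each class. Among transcripts with separate WT groups, the KO difference had the WT sign for 673 of 989 (68.0%) under 3 TPM, for 602 of 832 (72.4%) at 3 to 10 TPM and for 314 of 413 (76.0%) at 10 to 30 TPM. The count was 188 of 216 (87.0%) at 30 to 100 TPM, 54 of 57 (94.7%) at 100 to 1000 TPM and 5 of 5 at 1000 TPM or more. Over all transcripts of a class, whatever their WT consistency, the share was 58.8%, 62.0%, 64.9%, 72.2%, 79.7% and 76.2% in the same order. With median-of-ratios scaling the shares for separate groups were 63.5%, 66.1%, 75.7%, 87.7%, 84.6% and 100%, so the class of 100 to 1000 TPM then lay below that of 30 to 100 TPM.

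**Figure D3:**
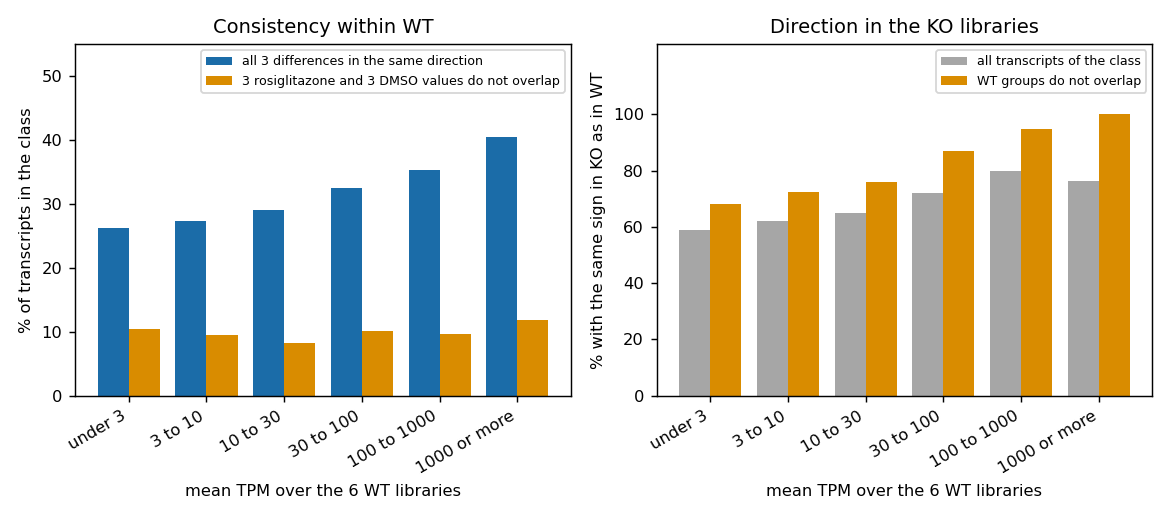
Left, percent of transcripts in each abundance class (horizontal axis, mean TPM) whose 3 WT differences have the same sign (blue) or whose 3 treated and 3 control values do not overlap (orange). Right, percent whose mean KO difference has the same sign as the mean WT difference, for all transcripts of the class (grey) and for those with separate WT groups (orange), which runs from 68.0% under 3 TPM to 94.7% at 100 to 1000 TPM.

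The match between the differences of replicates 1 and 2 was closer at 30 TPM and above than below it. Across transcripts, Pearson's r between them was 0.0297 under 3 TPM, 0.097 at 3 to 10, 0.119 at 10 to 30, 0.324 at 30 to 100 and 0.682 at 100 to 1000 TPM. From 3 TPM up the match with replicate 3 was weaker than this, and it did not follow abundance in order. Under 3 TPM all 3 values were near 0. Between replicates 1 and 3, r was 0.0354, 0.0238, -0.0146 and 0.143 in the 4 classes below 100 TPM, and between replicates 2 and 3 it was 0.0233, 0.0057, 0.0039 and -0.122. At 100 to 1000 TPM the replicate 3 difference had r = 0.246 with replicate 1 and 0.175 with replicate 2, and without uc008opl.2 these were 0.164 and 0.0983 (0.641 between replicates 1 and 2). By rank, Spearman's rho in this class was 0.574 between replicates 1 and 2, 0.078 between 1 and 3 and 0.0446 between 2 and 3. At 1000 TPM or more, with 42 transcripts, the 3 values were 0.477, 0.343 and -0.0274. The differences share no library with each other, but the transcripts of a library share its scaling and composition and are not independent, so these values are descriptions.

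Against the mean difference in KO, the mean WT difference had r = 0.119 under 3 TPM, 0.154 at 3 to 10, 0.28 at 10 to 30, 0.53 at 30 to 100, 0.751 at 100 to 1000 and 0.924 at 1000 TPM or more. Without uc008opl.2 the value at 100 to 1000 TPM was 0.751 as well. Each WT replicate showed this order up to 100 to 1000 TPM. In that class replicates 1, 2 and 3 had r = 0.70, 0.647 and 0.357 with the KO mean, while under 3 TPM they had 0.0509, 0.10 and 0.0595.

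**Figure D4:**
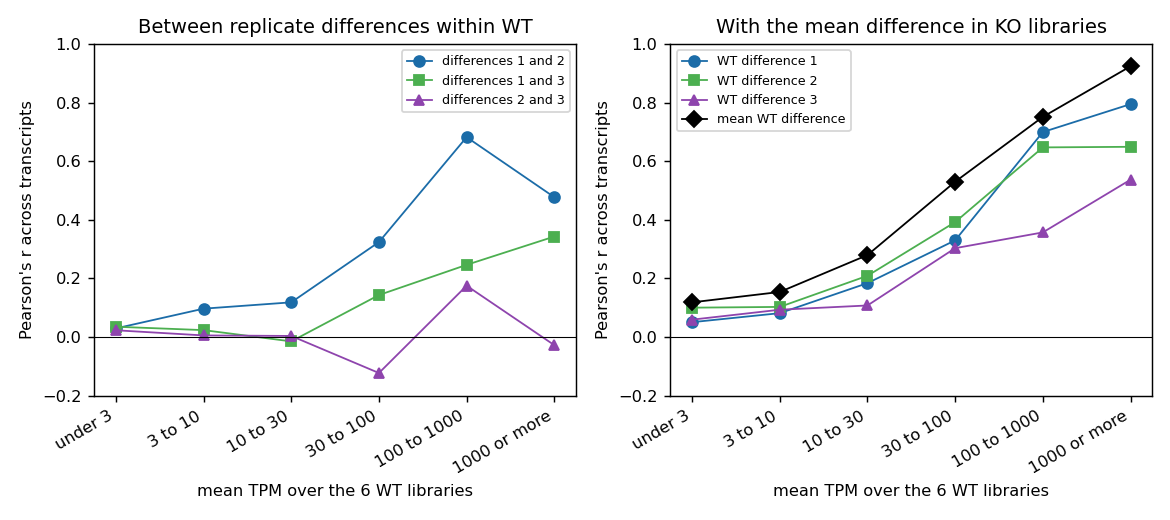
Pearson's r across transcripts (vertical axis) in each abundance class (horizontal axis, mean TPM). Left, between the rosiglitazone minus DMSO differences of the 3 WT replicate numbers; right, between the WT differences and the mean difference over the 4 and 4 KO libraries, which reaches 0.751 at 100 to 1000 TPM for the WT mean (black).

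A change seen in 2 replicates was then read in the remaining one. Of 305 transcripts that differed 2-fold or more the same way in replicates 2 and 3, 172 (56.4%) had that sign in replicate 1. Of 295 chosen on replicates 1 and 3, 151 (51.2%) had it in replicate 2, and of 361 chosen on replicates 1 and 2, 204 (56.5%) had it in replicate 3. In each case the same 90 were also 2-fold there, which holds by definition, since they are the transcripts 2-fold in all 3. For transcripts that merely shared a sign in the first pair of replicates, whatever their size, the shares were 50.3%, 59.1% and 52.7%. A 2-fold difference in 2 replicates thus went with a higher share than that in replicates 1 and 3 and a lower one in replicate 2. All these shares were read on TPM as deposited and not after rescaling. The median differences there were 0.0506, -0.108 and -0.112 in replicates 1, 2 and 3. At 100 to 1000 TPM, transcripts of the same sign in the other 2 replicates had it also in replicate 1 in 69.0%, in replicate 2 in 69.7% and in replicate 3 in 51.2%.

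Among the 629 transcripts of 100 TPM or more, 62 had separate WT groups (22 higher and 40 lower). The share was 9.71% at 100 to 1000 TPM and 11.9% at 1000 TPM or more, beside 9.65% over all transcripts tested. With median-of-ratios scaling 39 in place of 57 were separate at 100 to 1000 TPM, and the split by direction was not read again in this set. Of the 62, 15 had a mean difference of 0.5 or more on the log2 scale, 9 higher and 6 lower. This limit was chosen after the values were seen, so the set is a description. Apart from uc008opl.2 none of the 15 passed the threshold in WT (limma adjusted p from 0.422 to 0.859). Their mean KO difference had the WT sign in all 15, from 0.46 to 1.12 for those higher and from -1.18 to -0.25 for those lower. That sign was also shared by 59 of the 62 with separate groups (95.2%) and by 500 of all 629 (79.5%). Apart from uc008opl.2, the difference between the KO and WT responses was not past an unadjusted p of 0.05 in any of them (limma).

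After uc008opl.2 the largest higher value was that of uc009nhq.1, with 73.6, 61.1 and 70.2 TPM in DMSO and 194, 121 and 101 TPM with the drug. Its groups did not overlap, and the difference of 0.96 (SE 0.24) did not pass (limma adjusted p = 0.66). It was 1.12 in KO. The transcript uc008fyf.1 measured 432, 381 and 413 TPM in DMSO and 1053, 696 and 654 TPM with the drug, a difference of 0.94 (SE 0.19, limma adjusted p = 0.504) that was 0.79 in KO. In both, replicate 1 had the largest difference and replicate 3 the smallest. Among the 9 higher transcripts, replicate 1 had the largest difference in 7 and replicate 3 the smallest in 8. The median difference over all transcripts was also higher in replicate 1 (0.0506) than in replicate 3 (-0.112). The order was not read after rescaling, and the part of this offset in it was not tested.

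Among the lower ones, uc009eml.1 was by far the most abundant of the 15. It had 10002, 7765 and 10226 TPM in DMSO and 6215, 4773 and 4594 TPM with rosiglitazone, so that every treated library lay below every control. The difference was -0.85 (SE 0.17, limma adjusted p = 0.505), with -0.69, -0.70 and -1.15 in the 3 replicates, and it was -0.77 in KO. The transcript uc008rbx.1 had 295, 292 and 354 TPM in DMSO and 161, 222 and 150 TPM with the drug. Its difference was -0.83 (SE 0.17, limma adjusted p = 0.505) in WT and -1.18 in KO. In the lower set replicate 1 had the largest difference in 2 of 6 and replicate 3 the smallest in 1. Both uc009eml.1 and uc008rbx.1 had their largest difference in replicate 3 (-1.15 and -1.23).

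**Figure D5:**
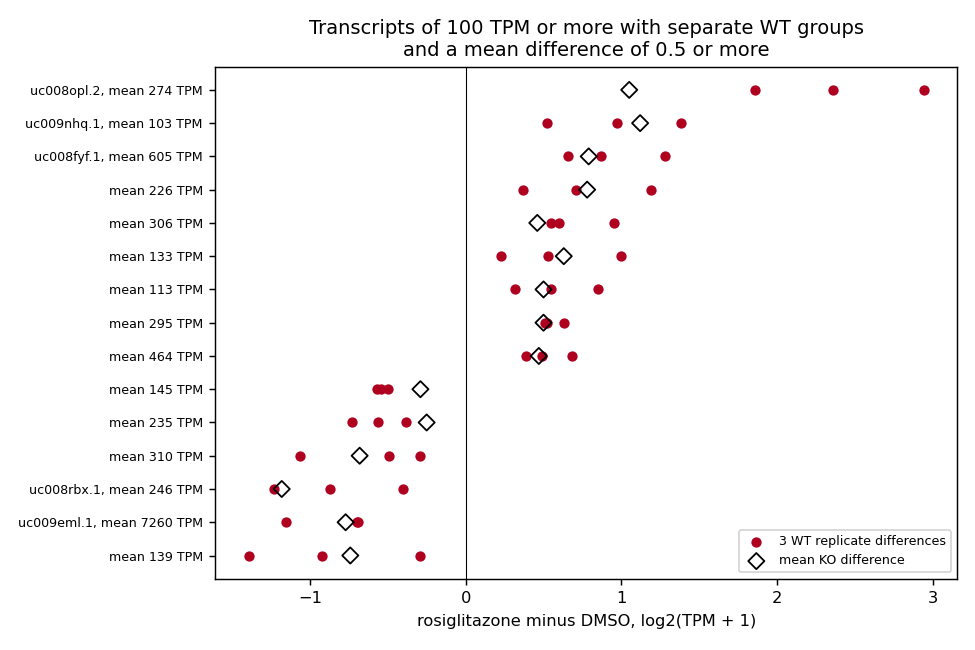
Rosiglitazone minus DMSO differences on the log2(TPM + 1) scale (horizontal axis) for the 15 transcripts of 100 TPM or more whose WT groups do not overlap and whose mean difference is 0.5 or more, 1 line each with its mean TPM. Red points are the 3 WT replicate differences and diamonds the mean KO difference, which lies on the same side of 0 in all 15.

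Taking, among transcripts whose groups do not overlap, the 2 with the largest difference of each direction in each class gave 24 transcripts, and their sign was read in KO. The mean KO difference had the WT sign for 6 of the 12 under 30 TPM and for 12 of the 12 at 30 TPM or more. Over all transcripts tested the share was 61.3% under 30 TPM and 73.8% at 30 TPM or more, and over those with separate groups it was 71.1% and 88.8%, so a higher share above 30 TPM is not particular to the named transcripts. The largest of the 24, at 9.26 TPM on average, had 9.84, 10.4 and 35.3 TPM in DMSO and was listed at 0 in all treated WT libraries (limma adjusted p = 0.118), while its KO difference was 1.19, of the opposite sign. At 10 to 30 TPM the largest such difference was of a transcript that averaged 3.24 ± 5.62 TPM in DMSO, where 2 libraries were listed at 0, and 22.8 ± 6.60 TPM with the drug (SD, n = 3; limma adjusted p = 0.723), and its KO difference was 0.13. At 30 to 100 TPM the largest higher one with separate groups had 16.6, 19.8 and 20.0 TPM in DMSO and 62.2, 29.3 and 54.4 TPM with the drug, a difference of 1.26 (SE 0.27, adjusted p = 0.575) that was 1.22 in KO. The largest lower one of that class with separate groups had 35.8, 56.7 and 44.5 TPM in DMSO and 16.3, 16.9 and 13.6 TPM with the drug, a difference of -1.47 (SE 0.18, adjusted p = 0.149) that was -0.29 in KO. A larger difference of that class, noticed in the plot of size against abundance after its values were seen, was left out because its groups overlap. The transcript uc009hcg.1 had 192, 128 and 3.46 TPM in DMSO and 7.88, 12.1 and 0.579 TPM with the drug, so 1 control lay below 2 treated libraries although each replicate difference was over 2-fold (-3.08, SE 1.52, limma adjusted p = 0.991; -0.81 in KO). At 1000 TPM or more the largest higher one with separate groups had 2274, 2017 and 2072 TPM in DMSO and 2600, 2617 and 2657 TPM with the drug (0.31, SE 0.09, adjusted p = 0.785; 0.29 in KO).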

How the data were processed

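The authors deposited TPM values for 14 libraries in 1 table. Per the submitters' processing notes, the tools were FastQC, kallisto (which estimates transcript abundance by pseudoalignment) and sleuth, with mm10 and GRCm38 as builds. No version, annotation release or strand setting is stated there. All 14 columns were matched by the sample number shared by header and labels. TPM keeps no depth, and its shared total lets abundant transcripts shift the rest.

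Values were log2(TPM + 1). The 2 WT groups alone were fitted with limma 3.58.1 in R 4.3.3, with variances following a trend on abundance, two-sided tests and Benjamini-Hochberg adjustment over 26037 transcripts (threshold 0.05). The interaction used all 14 libraries. The WT fit, without and with the fixed block, was run on simulated data with independent normal noise, which does not represent listings at 0. The interaction, random-block and weighted fits were not simulated. Plots used matplotlib 3.10.9 in Python 3.11.15. Members, classes, lists and tests were chosen with earlier results of these data known.

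The labels give both WT groups the same replicate numbers. Deviations from the group means correlated across transcripts at 0.137, 0.107 and 0.126 for equal numbers and between -0.134 and 0.0118 for unequal ones. Every equal-numbered pair was above 0.1, the criterion for treating the numbers as pairs. This pairing is read from the data, and the main fit does not use it.

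By the rule for named transcripts these were the 5 most abundant, all past the threshold and the 2 largest separate changes per class and direction. Because identifiers could not be paired with genes, they are printed for 2 calls that rose, 2 that fell and 5 transcripts that did not pass, a choice made after values were seen, and the gene lists set for the study were not used. Of the tested rows, 224 fall in 75 sets with identical values and were kept.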

Additional observations from a re-analysis of the deposited data

Results flagged for a closer look

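For 2 of the transcripts called in WT the fitted difference between the genotypes' responses passed the threshold (limma interaction over all 14 libraries). For uc033hga.1 the KO response minus the WT response was 6.06 on the log2(TPM + 1) scale (SE 0.42, adjusted p = 4.72e-05): it was listed at 0 in all 3 treated WT libraries and in all 4 KO DMSO libraries, and was above 0 in all others. For uc033jnf.1 the difference was -6.52 (SE 0.56, adjusted p = 0.000303), with the opposite pattern. These values rest on listings at 0 and are no measure of a fold, since they depend on the added constant. They were 12.33 and -12.85 with 0.1 (adjusted p = 2.89e-06 and 2.93e-06) and 2.62 and -2.94 with 5, where uc033jnf.1 no longer passed (adjusted p = 0.00259 and 0.072). Both transcripts passed the filter on WT levels only through the WT group in which they were high, so the WT side of the contrast was favoured by the filter and the p-values are not those of an independent test. The interaction passed for these 2 transcripts and no others of those tested (496 at an unadjusted p under 0.05). A listing at 0 can be a failed estimate, and its part here was not tested.

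For uc033hqw.1, which fell in WT, 1 treated KO library stood apart from the other 3. It had 7.15 TPM where the others were listed at 0, so the gap to the nearest value was the whole range (ratio 1). With the other 3 at 0 the ratio is 1 for any value above 0, so it is a description and no test. In KO DMSO the transcript was listed at 0 in 2 libraries and had 12.7 and 26.7 TPM in the others.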

How the results depend on the processing

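The count of 8 calls was 7 with a pseudocount of 0.1, 7 with median-of-ratios scaling, 9 with quantile normalization, 10 with the replicate number as a random block, and 8 with library weights or identical rows merged. It was 4 with a pseudocount of 5, 19 without the variance trend (10 higher and 9 lower) and 1 in a fit over all 14 libraries (894 at an unadjusted p under 0.05). It was 0 with a filter at 5 TPM (661 at an unadjusted p under 0.05), 0 with no filter (2261), and 0 with the replicate number as a fixed block (1849). Alternatives chosen after seeing the data gave 0 when transcripts at 0 in 3 or more WT libraries were left out (1386), a filter that removes 6 of the 8 before testing, and 1 among transcripts of 10 TPM or more (374). Leaving out single libraries gave 0 to 8 calls, of which 0 to 5 were among the 8, and 1038 to 2248 at an unadjusted p under 0.05. The fixed block ended every call, including each of the 8 transcripts, and the KO comparisons were not fitted with it. The cause of these changes was not tested.

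The 7250 transcripts with 3 differences of the same sign became 3745 with the 5 TPM filter, and 12277 to 14411 when only 2 replicates were asked for, as fewer conditions must pass. Groups that do not overlap were 1183 with that filter and 3956 without a filter. Differences of 2-fold or more in all replicates were 83 up and 109 down with a pseudocount of 0.1, 5 and 6 with 5, 13 and 16 with the 5 TPM filter and 31 down with quantile normalization, and with 2 replicates 126 to 158 up and 137 to 214 down. The interaction gave 4 calls with a pseudocount of 0.1, 1 with 5 and 5 without a filter. The share of the consistent 2-fold set with the same sign in KO was between 52.2% and 65.5% under every alternative tried for it.

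For the 34 transcripts run through the settings (those of the naming rule, uc008fyf.1 and uc009hcg.1), no value past the threshold changed sign. The other 9 transcripts of the abundant set of 15 were not run. The 8 calls were kept in 59 of 97 values under other settings and in 6 of 48 with 1 library left out.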
